A study of Mus musculus with 11 samples.

Results

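The IL-1, IL-6 and TNF cytokine axis was described through 10 genes in the hearts of mouse embryos that lack the phosphodiesterase Pde2A: the ligands Il1a, Il1b, Il6, Lif and Tnf, the IL-1 receptor antagonist Il1rn, and the receptors Il1r1, Il6ra, Il6st and Tnfrsf1a. The genes were chosen by name, with earlier results of these data known. All 10 of them were among the 55487 gene identifiers counted and among the 24177 genes that reached a minimum of 10 counts summed over the hearts. The study compared 5 Pde2A-/- hearts (replicates A, B, 14, D and 15) with 6 Pde2A+/+ hearts (replicates 7, 11, 6, 8, H and E), with 1 library of stranded poly(A) RNA per heart. The embryos came from heterozygous crosses of the line B6;129P2-Pde2A tm1Dgen, a constitutive allele, and were taken at E14.5; no treatment is given for them. Hearts of both sexes were used, only living embryos were taken, and no litter or batch is given in the sources used here, so p-values measure the spread between these hearts. Whole hearts were sequenced, so a higher level can come from more cells of a type or from more RNA per cell, and these cannot be told apart.

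IL-1 alpha and IL-1 beta both bind IL-1 receptor 1, which signals with its partner Il1rap through MYD88 and NF-kB, while Il1rn occupies the receptor without signalling. IL-6 binds its own receptor Il6ra and then gp130, the product of Il6st, which is shared by LIF, oncostatin M and IL-11 and acts through JAK kinases and STAT3. TNF is shed from the cell surface by ADAM17 and signals through Tnfrsf1a, which many cell types carry, and Tnfrsf1b, which is found mainly on blood and endothelial cells. In the heart, gp130 cytokines act on cardiomyocytes, and macrophages and neutrophils are known sources of IL-1, IL-6 and TNF.

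The sequence upstream of the start site is given for 4 of the ligands, the 2 that were called and 2 that were not, so that the letters near the start sites can be read beside the values. The 250 bases before the start site were taken from the RefSeq promoters of GRCm38.p6, in which all 10 genes had at least 1 start site. Capitals mark matches, on either strand, to TGACGTCA (the cAMP response element), TGANTCA (AP-1), GGGNNTTTC (NF-kB), TTGCNNAA (C/EBP), TTCNNNGAA (STAT) and TATAAA.
Il1a (chr2:129309973-129310222, minus strand): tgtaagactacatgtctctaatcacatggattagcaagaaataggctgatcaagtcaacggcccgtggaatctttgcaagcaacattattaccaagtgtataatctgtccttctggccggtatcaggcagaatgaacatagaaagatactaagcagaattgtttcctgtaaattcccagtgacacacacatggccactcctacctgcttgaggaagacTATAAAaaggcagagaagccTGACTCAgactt
Il6 (chr5:30012864-30013113, plus strand): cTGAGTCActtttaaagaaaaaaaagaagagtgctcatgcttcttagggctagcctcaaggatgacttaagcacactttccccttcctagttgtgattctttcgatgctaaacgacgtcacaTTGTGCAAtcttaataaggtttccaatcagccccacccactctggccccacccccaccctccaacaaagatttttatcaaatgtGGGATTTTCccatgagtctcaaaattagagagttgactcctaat
Il1b (chr2:129371140-129371389, minus strand): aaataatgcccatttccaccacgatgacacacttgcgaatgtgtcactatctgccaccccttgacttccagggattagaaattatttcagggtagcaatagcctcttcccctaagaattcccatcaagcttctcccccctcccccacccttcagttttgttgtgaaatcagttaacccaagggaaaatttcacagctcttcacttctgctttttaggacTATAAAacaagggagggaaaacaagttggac
Tnf (chr17:35202008-35202257, minus strand): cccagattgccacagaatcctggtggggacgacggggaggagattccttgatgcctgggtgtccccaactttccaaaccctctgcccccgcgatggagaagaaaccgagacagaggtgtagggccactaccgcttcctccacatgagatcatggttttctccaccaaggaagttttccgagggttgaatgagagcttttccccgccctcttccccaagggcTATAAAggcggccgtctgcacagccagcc
The Il6 window held the AP-1 letters 249 bases upstream, the C/EBP letters 128 bases upstream and the NF-kB letters 44 bases upstream. The Il1a window held TATAAA 32 bases upstream and the AP-1 letters 12 bases upstream, whereas the Il1b and Tnf windows held only TATAAA, 31 and 29 bases upstream. Of all 32851 promoters of this length, 6.75% held the AP-1 letters, 3.72% the NF-kB letters, 9.56% the C/EBP letters, 7.02% the STAT letters and 12.4% TATAAA. Among the other genes of the axis, the AP-1 letters were found for Il1rn and Lif, the NF-kB letters for Il1rn, the C/EBP letters for Il1r1 and the STAT letters for Tnfrsf1a. The full cAMP response element was found in the window of 0 of the 10 genes and in 1.55% of all promoters, and the shorter TGACG, part of that element and not capitalised above, was found for Il1r1, Il6 and Il6ra and in 17.8% of all promoters. A match describes the letters of these windows and not the binding of a factor.

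Reads on the sense strand of genes numbered between 35865537 and 42835382 per heart, and these totals did not differ between the genotypes beyond their spread (exact permutation test, two-sided, p = 0.870). One count corresponded to between 0.0236 and 0.0278 CPM, the unit used here for counts scaled to library size (CPM) after TMM normalization. Pde2a itself had between 0 and 2 counts in every heart of either genotype, and 64.3% of its exon length is shared with another gene model on the same strand, so the targeted gene could not check the labels. Cardiomyocyte markers were high in all hearts (Myh7, 13137 ± 1646 CPM in Pde2A-/- hearts, SD, n = 5, and 13839 ± 2618 CPM in Pde2A+/+ hearts, n = 6). The Pde2A+/+ heart 7 also held thymus transcripts, with Foxn1 at 10.9 CPM and Rag1 at 32.6 CPM, against at most 0.0236 and 0.183 CPM in the other hearts. Liver transcripts, with Alb at 10 CPM or more, were present in 4 hearts, Pde2A-/- D and Pde2A+/+ 11, H and E.

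Of the 10 genes, 6 were called higher in Pde2A-/- hearts at an adjusted p under 0.05 by edgeR's quasi-likelihood test, against 8.93% of all genes tested. These were the ligands Il1a and Il6 and all 4 receptors, Il1r1, Il6ra, Il6st and Tnfrsf1a. By the same test 0 were called lower, against 5.67% of all genes. At an unadjusted p under 0.05, 0 were lower, against 14.9% of all genes. DESeq2 gave no adjusted p for Il1rn, the only gene of the 10 with a negative log2 fold change, so it could not call that gene lower. The median log2 fold change of the 10 genes was 0.51, and that of all genes tested was -0.02. The genes were chosen with earlier results of these data known, so these shares are a description and no test of the axis. For the same 6 genes every Pde2A-/- heart was above every Pde2A+/+ heart; of all genes, 5.38% were higher and 3.11% lower without overlap. Both ligands also passed a 2-fold limit, which 2.07% of all genes passed upwards and 0.248% downwards. Without heart 7 the same 6 genes were called, beside 2658 of 23700 genes tested. Without the 4 hearts that held liver transcripts, a comparison chosen after seeing the data, 4 were called, beside 532 of 22624 genes tested. Il6 and Il6ra, with log2 fold changes of 1.58 and 0.64, lost their calls with adjusted p of 0.0571 and 0.0624 by edgeR.

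**Figure D1:**
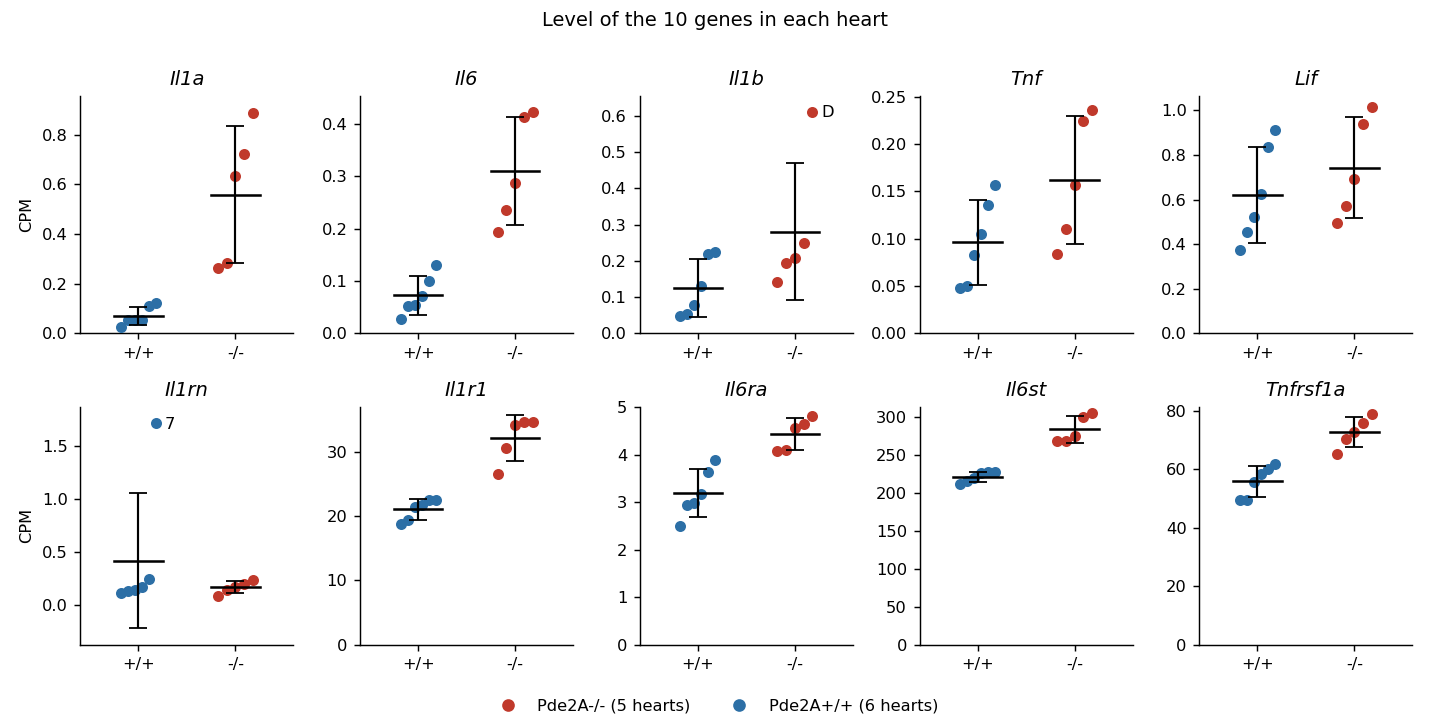
Level of the 10 genes in each heart, in CPM, by genotype; points are single hearts, and bars are the mean ± SD over 6 Pde2A+/+ or 5 Pde2A-/- hearts. Il1a, Il6, Il1r1, Il6ra, Il6st and Tnfrsf1a are separated by genotype, whereas 1 heart stands apart for Il1b (D, 0.611 CPM) and for Il1rn (7, 1.72 CPM).

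Among the ligands, Il1a (ENSMUSG00000027399, chromosome 2, 129299610 to 129309972 of GRCm38) showed the largest change of the 10 genes. Its level in Pde2A-/- hearts was 0.261 CPM in A, 0.283 in B, 0.722 in 14, 0.888 in D and 0.634 in 15, from 10 to 32 counts. In Pde2A+/+ hearts it was 0.0249 CPM at the lowest, 0.0533 at the median and 0.120 at the highest, from 1 to 5 counts. All 5 Pde2A-/- hearts were thus above every Pde2A+/+ heart, and hearts A and B were the lowest of the 5. The mean level was 8.09 times higher, and the fitted log2 fold change, which a prior count of 2 pulls towards 0, was 2.33 ± 0.47 (SE; adjusted p = 0.000825 by edgeR). The call held when any 1 heart was left out, with log2 fold changes from 2.13 to 2.50.

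Il6 (ENSMUSG00000025746, chromosome 5, 30013114 to 30019981) was the other ligand that rose. It reached 0.287 CPM in heart A, 0.236 in B, 0.423 in 14, 0.194 in D and 0.413 in 15, from 7 to 17 counts. In Pde2A+/+ hearts it was 0.0272 CPM at the lowest, 0.0634 at the median and 0.130 at the highest, from 1 to 5 counts. The genotypes did not overlap, and the order of the Pde2A-/- hearts differed from that of Il1a, since D was the highest for Il1a and the lowest for Il6. The mean was 4.28 times higher, with a log2 fold change of 1.54 ± 0.38 (SE; adjusted p = 0.00335 by edgeR).

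Il1b (ENSMUSG00000027398), which lies 54.6 kb from Il1a on chromosome 2 (129364570 to 129371139), did not pass the test. It had 0.209 CPM in heart A, 0.142 in B, 0.249 in 14, 0.611 in D and 0.193 in 15, against 0.0480, 0.104 and 0.224 CPM as the lowest, median and highest Pde2A+/+ values. The groups overlapped, with only D and 14 above every Pde2A+/+ heart. The log2 fold change was 0.90 ± 0.49 (SE; adjusted p = 0.130 by edgeR), and it was 0.50 without heart D (adjusted p = 0.394). Heart D also had the highest summed level of neutrophil markers, 55.4 CPM, and the part of these cells in the Il1b value was not tested.

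Tnf (ENSMUSG00000024401, chromosome 17, 35199381 to 35202007) had few counts, 3 to 10 counts in Pde2A-/- and 2 to 6 in Pde2A+/+ hearts. Its levels were 0.157 CPM in A, 0.236 in B, 0.224 in 14, 0.0833 in D and 0.110 in 15, and between 0.0480 and 0.156 CPM in Pde2A+/+ hearts with a median of 0.0934. The groups overlapped, and the log2 fold change of 0.55 ± 0.41 (SE; adjusted p = 0.216 by edgeR) had an approximate 95% interval from -0.26 to 1.35. With the default prior count the log2 fold change was 0.76. A rise of 2-fold could thus not be told from no change at this depth. Lif (ENSMUSG00000034394, chromosome 11, 4257557 to 4272514), a gp130 ligand, had 0.496 CPM in A, 1.01 in B, 0.572 in 14, 0.694 in D and 0.937 in 15, within or just above the Pde2A+/+ range of 0.373 to 0.913 CPM (median 0.573). Its log2 fold change of 0.24 ± 0.27 (SE; adjusted p = 0.570 by edgeR) had an interval from -0.29 to 0.78.

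The inhibitor Il1rn (ENSMUSG00000026981, chromosome 2, 24336853 to 24351494) was not called, and 1 library decided its value. It had 0.235 CPM in A, 0.165 in B, 0.199 in 14, 0.0833 in D and 0.138 in 15, against 0.105 CPM at the lowest and 0.152 at the median of the Pde2A+/+ hearts and 1.72 CPM in heart 7. Heart 7 alone held 66 counts, and every other heart of either genotype held 3 to 9. The log2 fold change of -1.11 ± 0.76 (SE; adjusted p = 0.259 by edgeR) became 0.06 without heart 7 (adjusted p = 0.909). The thymus transcripts were in that same heart, and their part in the Il1rn value was not tested. Apart from heart 7, the level of this antagonist lay in overlapping ranges in both genotypes, whereas that of its competitor Il1a did not; the difference between the 2 genes was not tested.

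The 4 receptors were counted far more often and rose by smaller factors. Il1r1 (ENSMUSG00000026072, chromosome 1, 40225080 to 40317257), the signalling IL-1 receptor, had 26.5 CPM in A, 30.6 in B, 34.6 in 14, 34.1 in D and 34.7 in 15, from 1016 to 1390 counts. The Pde2A+/+ values ran from 18.8 to 22.5 CPM with a median of 21.5, so that the lowest Pde2A-/- heart, A, was above all of them. The log2 fold change was 0.61 ± 0.08 (SE; adjusted p = 0.000296 by edgeR), or 1.53 times in mean CPM.

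Il6st (ENSMUSG00000021756, chromosome 13, 112464070 to 112510086), which encodes gp130, was raised in every Pde2A-/- heart: 268 CPM in A, 275 in B, 268 in 14, 305 in D and 299.8 in 15. In Pde2A+/+ hearts it spanned only 212 to 227 CPM (median 222). The groups did not overlap, and the log2 fold change was 0.36 ± 0.05 (SE; adjusted p = 0.000347 by edgeR). Its specific partner Il6ra (ENSMUSG00000027947, chromosome 3, 89864059 to 89913196) had 4.10 CPM in A, 4.08 in B, 4.65 in 14, 4.55 in D and 4.82 in 15, above the Pde2A+/+ range of 2.49 to 3.89 CPM (median 3.08). The gap to the highest Pde2A+/+ heart, E, was narrow, and the log2 fold change was 0.47 ± 0.12 (SE; adjusted p = 0.0228 by edgeR). The adjusted p of Il6ra rose to 0.0598 without heart 14, 0.0613 without 15 and 0.0620 without D.

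Tnfrsf1a (ENSMUSG00000030341, chromosome 6, 125349362 to 125362484), the main TNF receptor, had 65.2 CPM in A, 70.4 in B, 72.8 in 14, 75.9 in D and 79.0 in 15. The Pde2A+/+ hearts lay between 49.5 and 61.8 CPM with a median of 57.0, all below the lowest Pde2A-/- heart. Its log2 fold change was 0.38 ± 0.07 (SE; adjusted p = 0.00439 by edgeR). For each of the 6 called genes the exact permutation test of log2 CPM, two-sided, gave p = 0.0043, the smallest that 462 splits of 5 against 6 hearts allow. That value follows from the lack of overlap already given and adds nothing to it.

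**Figure D2:**
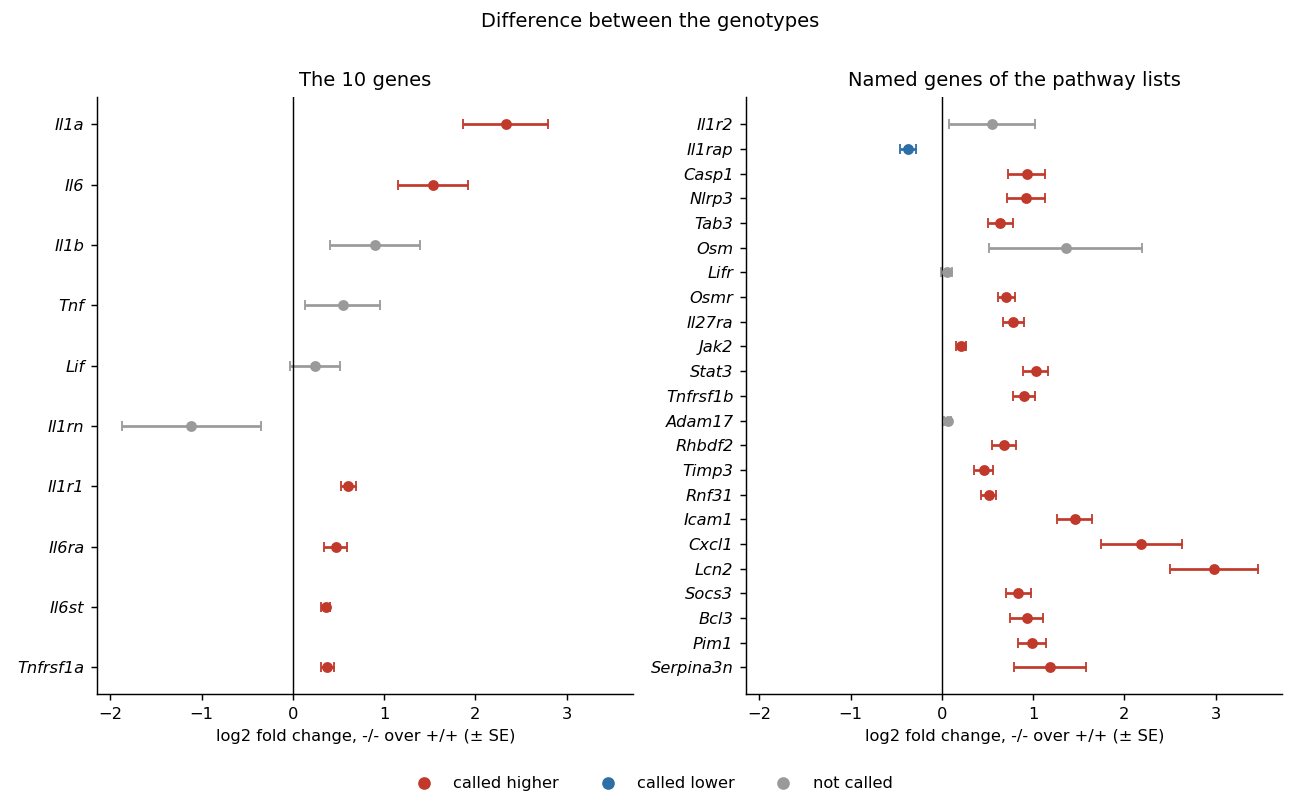
Log2 fold change of Pde2A-/- over Pde2A+/+ hearts with its SE for the 10 genes (left) and for the named genes of the pathway lists (right); red points were called higher, blue lower, and grey were not called. The ligands Il1a (2.33) and Il6 (1.54) lie to the right of the 4 receptors, which fall between 0.36 and 0.61, and Il1rap is the 1 blue point (-0.37).

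Levels of different genes were compared as CPM per kb of merged exon. In Pde2A+/+ hearts Tnfrsf1a (21.6 ± 2.0 CPM per kb, SD, n = 6) and Il6st (19.9 ± 0.60) were the highest of the 10 genes, and their ranges overlapped. Il1r1 followed at 3.30 ± 0.25 and Il6ra at 0.369 ± 0.059 CPM per kb, each apart from its neighbours beyond its spread. The ligands and Il1rn lay below, from Lif at 0.143 ± 0.049 to Il6 at 0.0299 ± 0.0152 CPM per kb, and neighbours in that order overlapped. With the length of the longest transcript Il1rn (0.163) stood above Lif (0.154 CPM per kb), and its mean rested on heart 7, at 0.311 CPM per kb of merged exon and above the lowest Il6ra value of 0.289. In Pde2A-/- hearts the 4 receptors kept this order, from Tnfrsf1a at 28.04 ± 2.03 to Il6ra at 0.514 ± 0.039 CPM per kb (n = 5). Il1a moved from rank 9 to rank 5, at 0.282 ± 0.140 CPM per kb, with a range that overlapped those of Lif, Il1b, Il6 and Tnf. Il6ra, the specific IL-6 receptor, was thus detected at a far lower level than gp130 in both genotypes.

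The other genes of the 3 pathways were read from 10 lists, also chosen with earlier results of these data known. They held 103 genes, of which 91 were tested. Of these, 35 were called higher and 2 lower, against 8.93% and 5.67% of all genes tested, and the median log2 fold change was 0.27 against -0.02 over all genes. The 12 genes that were not tested had at most 7 counts over all 11 hearts, among them the 4 IL-36 genes, Csf2, Csf3 and Mmp3. Most calls were among response genes, and 0 were among other ligands, or 1 without heart 7. The lists of IL-1 ligands and inhibitors and of IL-6 ligands held only 3 and 5 tested genes. Of those 5 only 1 reached a mean of 1 CPM in Pde2A+/+ hearts. Their 0 calls can thus not be told from the 8.93% over all genes. The difference between lists was not tested.

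**Figure D3:**
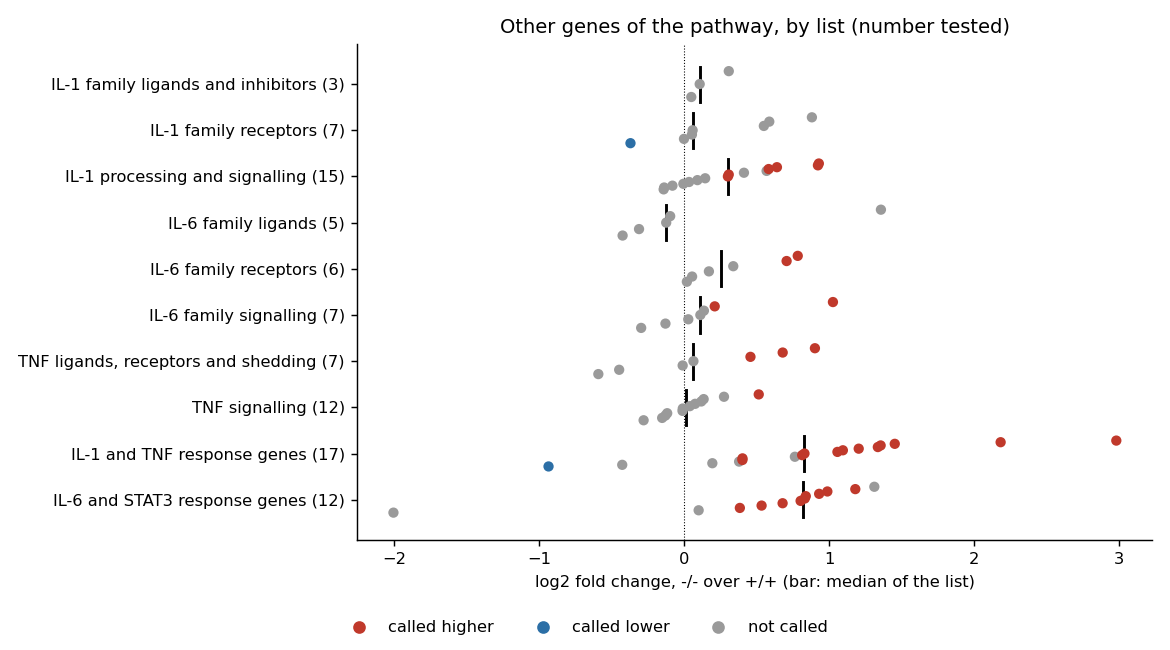
Log2 fold change of the other genes of the pathways, by list, with the number tested in parentheses; each point is 1 gene and each bar the median of its list. The medians of the 2 lists of response genes are 0.83 and 0.82, and those of the other 8 lists lie between -0.12 and 0.30.

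On the IL-1 side, 0 of 3 other ligands and inhibitors tested were called, with log2 fold changes between 0.05 and 0.31 (edgeR). Of 7 IL-1 family receptors, 0 were called higher and 1 was called lower. This was Il1rap, the co-receptor that Il1r1 needs to signal, with 17.3 CPM in A, 14.6 in B, 12.9 in 14, 14.2 in 15 and 12.1 in D against 17.2 to 20.7 CPM in Pde2A+/+ hearts. Only heart A overlapped, and the log2 fold change was -0.37 ± 0.09 (SE; adjusted p = 0.0162 by edgeR), opposite in sign to that of Il1r1. The decoy receptor Il1r2 did not pass the test (0.55 ± 0.47 on the log2 scale, SE; adjusted p = 0.334 by edgeR). Of 15 genes of IL-1 processing and signalling, 6 were called higher and 0 lower. Casp1, which cleaves pro-IL-1 beta, rose by 0.93 ± 0.21 on the log2 scale, and the inflammasome sensor Nlrp3 by 0.92 ± 0.20, both without overlap of the genotypes. Tab3, an adaptor of the kinase TAK1, rose from 26.9 ± 1.2 to 42.0 ± 11.1 CPM (SD), with heart 15 the highest at 57.4 CPM and heart A the lowest at 28.9 CPM.

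On the IL-6 side, 0 of 5 other ligands tested were called with all hearts and 1, Osm, without heart 7. Osm, which encodes oncostatin M, had between 0.287 and 0.638 CPM in Pde2A-/- hearts and at most 0.0548 CPM in 5 Pde2A+/+ hearts, but 0.574 CPM in heart 7. Its log2 fold change was 1.36 ± 0.84 (SE; adjusted p = 0.178 by edgeR), and without heart 7 it was 2.54 and was called (adjusted p = 0.000732). Among 6 receptors of the family 2 were called higher. Osmr, the oncostatin M receptor that pairs with gp130, rose from 9.33 ± 0.90 to 15.3 ± 1.9 CPM (SD), a log2 fold change of 0.71 ± 0.09 (SE; adjusted p = 0.000352 by edgeR). Il27ra, which also pairs with gp130, rose by 0.78 ± 0.12. Lifr, the LIF receptor, did not pass the test, with 58.3 ± 4.0 and 56.1 ± 4.3 CPM (SD), and a 95% interval of the log2 difference from -0.07 to 0.18.

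Of 7 genes of IL-6 family signalling, 2 were called higher and 0 lower. Stat3, the transcription factor downstream of gp130, had 122 CPM in A, 147 in B, 195 in 14, 193 in D and 239 in 15. The Pde2A+/+ hearts lay between 83.8 and 93.2 CPM, so that every Pde2A-/- heart was higher, and A was the nearest to them. The log2 fold change was 1.03 ± 0.13 (SE; adjusted p = 0.000296 by edgeR). Jak2, a kinase bound to gp130, rose by 0.21 ± 0.05 on the log2 scale. Of 12 STAT3 response genes tested, 9 were called higher and 0 lower. Socs3, the feedback inhibitor of gp130, had 10.6 to 14.97 CPM in Pde2A-/- and 5.12 to 8.53 CPM in Pde2A+/+ hearts, without overlap (0.84 ± 0.13 on the log2 scale, SE; adjusted p = 0.0014 by edgeR). The kinase Pim1 rose by 0.99 ± 0.15 and the NF-kB cofactor Bcl3 by 0.93 ± 0.18 on the log2 scale. The acute phase gene Serpina3n passed narrowly (1.18 ± 0.39 on the log2 scale, SE; adjusted p = 0.0497 by edgeR), with overlapping genotypes and 3 of 5 Pde2A-/- hearts above every Pde2A+/+ heart, and its adjusted p was up to 0.113 when 1 heart was left out and 0.0682 without heart 7.

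On the TNF side, 3 of 7 genes for other ligands, receptors and shedding were called higher. Tnfrsf1b, the second TNF receptor, had 10.5 CPM in A, 12.6 in B, 11.1 in 14, 15.7 in D and 13.6 in 15, against 5.43 to 8.12 CPM in Pde2A+/+ hearts. Its log2 fold change of 0.90 ± 0.12 (SE; adjusted p = 0.000319 by edgeR) was numerically above that of Tnfrsf1a, and the difference between the receptors was not tested. The sheddase Adam17 did not pass the test, with 77.7 ± 2.2 and 74.3 ± 2.3 CPM (SD), whereas Rhbdf2, which carries ADAM17 to the cell surface, rose by 0.68 ± 0.13 and Timp3, which inhibits it, by 0.46 ± 0.10 on the log2 scale. Of 12 genes of TNF signalling only Rnf31, a subunit of the linear ubiquitin ligase, was called (0.51 ± 0.08 on the log2 scale), and 0 were called lower, beside 8.93% and 5.67% of all genes tested.

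Of 17 response genes of IL-1 and TNF, 12 were called higher and 1 lower. Lcn2, an iron-binding protein also stored in neutrophil granules, had 1.49 to 3.80 CPM in Pde2A-/- and 0.0261 to 0.422 CPM in Pde2A+/+ hearts, a log2 fold change of 2.98 ± 0.48 (SE; adjusted p = 0.000857 by edgeR). Cxcl1, a neutrophil chemokine, rose by 2.18 ± 0.44 on the log2 scale, and heart B, at 0.283 CPM, lay within the Pde2A+/+ range. Icam1, the endothelial adhesion molecule, had 28.7 CPM in A, 34.6 in B, 51.6 in 14, 63.9 in D and 63.8 in 15, against 13.7 to 22.6 CPM, and rose by 1.45 ± 0.20 on the log2 scale. Hearts A and B were the lowest Pde2A-/- hearts for Il1a, Icam1 and Stat3. The 1 gene called lower was Nos2, inducible nitric oxide synthase, named after its value was seen, which fell by 0.94 on the log2 scale (SE 0.23) and had an adjusted p of 0.0560 without heart D. Without the 4 hearts that held liver transcripts, 3 of these genes and 3 of the STAT3 response genes were called higher and 0 lower. Of all genes, 532 of 22624 tested were called in that comparison.

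Markers of some cell types were called higher in Pde2A-/- hearts, and those of others were called lower or not at all. Of all genes tested, 8.93% were called higher and 5.67% lower. Of 10 macrophage markers, 8 were called higher, and their summed level was 222 to 282 CPM in Pde2A-/- and 110 to 172 CPM in Pde2A+/+ hearts. Heart A had the lowest sum of the Pde2A-/- hearts, and C1qc, a macrophage complement gene, rose by 1.11 ± 0.13 on the log2 scale. Of 7 neutrophil markers tested, 6 were called higher, with sums of 20.2 to 55.4 CPM against 0.549 to 8.24 CPM. They included the granule genes Mpo (2.59 ± 0.53 on the log2 scale) and S100a9 (2.93 ± 0.47), while Ly6g, which marks mature neutrophils, had too few counts to be tested. Of 6 endothelial markers 2 were called higher, and Pecam1 rose by 0.34 ± 0.07 on the log2 scale. Of 6 fibroblast markers 3 were called higher, among them Postn (0.42 ± 0.08), while 0 of 6 epicardial markers were called. Of 3 monocyte markers tested Ccr2 was called lower (-1.48 ± 0.27 on the log2 scale), whereas Ly6c2 (0.84 ± 0.77) and Plac8 (-0.85 ± 0.77, and 0.84 without heart 7, which held 21.04 CPM) did not pass the test; the median of the 3 was -0.85 with heart 7 and 0.84 without it. Of 4 mast cell markers tested only Cpa3 was called, and it was lower (-1.68 ± 0.34), while 1 of the 4 had a positive log2 fold change. Cpa3 in Pde2A+/+ heart 8, at 1.05 CPM, lay within the Pde2A-/- range of 0.796 to 1.41 CPM. Of 8 erythroid markers 5 were called higher, each without overlap of the genotypes, and the median log2 fold change of the 8 was 2.59. Their summed level, in which the markers with the most counts weigh most, had a median of 4270 CPM in Pde2A-/- and 4240 CPM in Pde2A+/+ hearts. Of 2 B cell markers tested 0 were called. Of 9 cardiomyocyte markers 1 was called higher and 2 lower, of 4 megakaryocyte and platelet markers 1 higher, and of 4 smooth muscle markers 1 lower. Of 6 T and NK cell markers 1 was called lower, and their sum was 49.5 CPM in heart 7 and at most 0.624 CPM in the other hearts. Without heart 7 neither that call nor the smooth muscle call was made. Of the 4 liver and the 4 thymus markers 0 were called by edgeR. Without the 4 hearts that held liver transcripts, 7 macrophage markers and 1 neutrophil marker were called higher, beside 532 of 22624 genes tested called in either direction. The part of each of these cell types in the levels of the 10 genes was not tested.

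**Figure D4:**
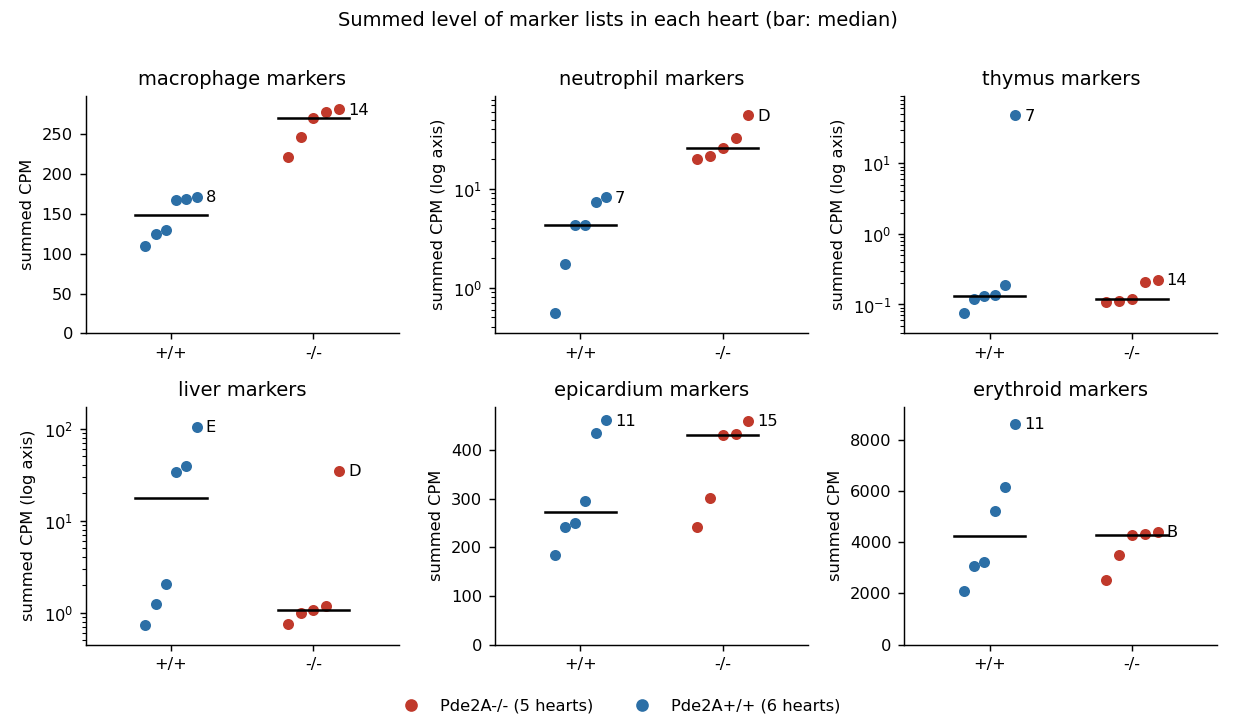
Summed CPM of the markers of 6 cell types or tissues in each heart, by genotype, with the median as a bar and the name of the highest heart; the neutrophil, thymus and liver panels have a log axis. Macrophage and neutrophil sums are separated by genotype, the thymus sum is high only in Pde2A+/+ heart 7 (47.6 CPM), and the liver sum is high in Pde2A-/- heart D and in 3 Pde2A+/+ hearts.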

How the data were processed

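Hearts of 5 Pde2A-/- and 6 Pde2A+/+ embryos were grouped by their titles. The authors mapped single-end reads of stranded libraries to GRCm38 (mm10) with STAR, whose version is not given in the sources used here, and deposited whole-number counts per gene, without normalization, for both strands together and for each strand. The sense-strand counts were used. Of 55487 gene identifiers, 55227 matched GENCODE M21, which gave names, positions and lengths. Reads not on a single gene (19.6% to 22.4% per heart) were left out of library sizes.

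Genes below 10 counts in the sum of the 11 hearts were dropped. With edgeR 4.0.16 in R 4.3.3, TMM normalization and the quasi-likelihood test were used with Benjamini-Hochberg adjustment over all 24177 genes. Log2 fold changes used a prior count of 2, and SEs came from the fit with the default prior count of 0.125. The unit is counts, so CPM values are scaled from the deposited counts. Intervals are ± 1.96 SE, and for genes with few counts they are approximate, since the prior count of 2 shifts their centre towards 0. In simulated counts for this comparison, edgeR recovered 87 of 100 genes with a log2 change of 1 and 100 of 100 with a log2 change of 2. There were 7 false calls among 23489 unchanged genes. The simulated spread followed its trend over level, with no spread particular to a gene and no heart that stood apart. Error rates in the real hearts can thus be higher. The changed genes were drawn from those with a mean of at least 1 CPM. The ligands and Il1rn did not reach that mean, so recovery at their levels was not measured. Exact permutation tests used scipy 1.17.1, and figures matplotlib 3.10.9. Alternatives were DESeq2 1.42.0, its size factors, other filters, both strands, erythroid genes left out, the style of replicate names as a term, and each heart left out.

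Named genes were the 10 genes, Pde2a, up to 3 called genes with the largest change in each pathway list, Il1r2, Il1rap, Lifr, Osm, Osmr, Tnfrsf1b, Adam17 and Socs3, and up to 2 examples per marker list with defining markers near 0. The members and lists were chosen with earlier results of these data known.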

Additional observations from a re-analysis of the deposited data

Results flagged for a closer look

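The 10 genes and the 23 named genes of the pathway lists, 33 in all, were each examined in both genotypes, 66 groups in all, for a heart that stood apart from the rest of its genotype by Dixon's criterion at 95%. Chance marks about 1 in 20 independent groups of normally distributed values, and 6 were marked. Some of these groups hold very few counts, and all come from the same hearts. The 6 can thus not be read against that rate. Il1rn was 1.72 CPM in Pde2A+/+ heart 7 and 0.105 to 0.247 CPM in the other Pde2A+/+ hearts. Osm was 0.574 CPM in the same heart, and at most 0.0548 CPM in the others. In Pde2A-/- heart D, Il1b was 0.611 CPM (0.142 to 0.249 CPM in the others), Osm was 0.638 CPM (0.287 to 0.323 CPM) and Lcn2 was 3.80 CPM (1.49 to 1.91 CPM). Serpina3n was 1.38 CPM in Pde2A+/+ heart 8 and 0.274 to 0.678 CPM in the others.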

How the results depend on the processing

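No paired analysis was possible because the 2 genotypes share no replicate names. The 6 calls among the 10 genes were 5 with DESeq2 (adjusted p not given for Il1b, Il1rn, Il6 and Tnf), 5 with filterByExpr, which left out those 4 genes, 5 or 6 when 1 heart was left out, and 6 under each other planned setting. Of all genes tested, 3532 of 24177 were called in the main comparison, 5145 of 24177 with DESeq2 and 4208 of 16853 with filterByExpr. When 1 heart was left out, between 1702 and 5052 genes were called. The 10 genes were chosen with earlier results of these data known, so the range of their count is not compared with this range. Of the 10 genes, those past 2-fold fell from 2 to 1 with DESeq2, with filterByExpr and without the 4 hearts with liver transcripts, and were 2 without any 1 heart. Leaving out 1 heart gave 0 calls lower and 6 genes without overlap each time.

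Il1a had a log2 fold change of 1.89 with reads of both strands, 2.95 with the default prior count and 3.01 with DESeq2, and Il6 2.04 with the default prior count. The log2 fold change of Il1rn ran from -1.29 to 0.064 when 1 heart was left out, the latter without Pde2A+/+ heart 7, and that of Lif was -0.0046 without the 4 hearts with liver transcripts. The cause of the Lif value was not tested.

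Without those 4 hearts, 532 of 22624 genes were called, with fewer samples, and of the pathway genes 11 were called higher and 0 lower, and of the markers 15 higher and 1 lower. Pathway genes called lower, 2 in the main comparison, were 6 with DESeq2, 4 with its size factors, 4 with both strands, 5 with filterByExpr, 5 with the name style as a term and 1 to 6 when 1 heart was left out; those called higher were 28 to 37. Markers called lower were 10 with the name style as a term and 4 to 8 when 1 heart was left out, and those called higher 25 to 28. In the TNF signalling list, 1 gene was called higher and 0 lower with all hearts, 2 higher and 2 lower without Pde2A-/- heart A, and 2 higher and 1 lower without B. Of the mast cell markers 3 were called lower without Pde2A+/+ heart 8. The causes were not tested. Il1a, Il1b, Il6, Il1rn and Tnf rested on few counts per heart, so counting error limits them more than the receptors.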

Other observations

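The IL-1 receptor and its co-receptor moved in opposite directions, and their ratio, in CPM per kb of merged exon, was computed after both values had been seen and was not tested. Il1r1 over Il1rap was 2.74 in Pde2A-/- heart A, 3.74 in B, 4.79 in 14, 5.04 in D and 4.37 in 15. In Pde2A+/+ hearts the ratio was between 1.67 and 2.34, below every Pde2A-/- heart. Its mean was 2.06 ± 0.28 (SD, n = 6) against 4.14 ± 0.92 (n = 5) in Pde2A-/- hearts. The size of the ratio depends on the length used, whereas the order of the hearts does not. The merged exons of Il1rap span 11360 bases and its longest transcript 4520, against 6363 and 5819 for Il1r1. Heart A, which had the lowest ratio of the Pde2A-/- hearts, was also their lowest heart for 5 of the 10 genes. These were Il1a, Il1r1, Il6st, Lif and Tnfrsf1a. Heart A was their highest for Il1rn, while D was the lowest for 3 of the 10 genes, B for 2, and 14 and 15 for 0.

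None of the 10 genes lies on chromosome 7, where Pde2a is. Of the 103 other pathway genes 13 do, and the nearest, Il18bp, lies 0.502 Mb from Pde2a and was not called.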
